A study of Mus musculus with 12 samples.

Results

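The genes described here are the 4 kinases that phosphorylate eIF2α and 3 subunits of the phosphatase that removes the mark. The kinases are Eif2ak1 (HRI), Eif2ak2 (PKR), Eif2ak3 (PERK) and Eif2ak4 (GCN2), and the phosphatase subunits are Ppp1r15a (GADD34), Ppp1r15b (CReP) and Ppp1ca, a catalytic subunit of protein phosphatase 1 (PP1). They were taken by gene symbol, ignoring case, and all 7 were found among the 22416 genes of the count table. All 7 passed the filter on low counts, which kept 13229 genes for testing.

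Transcripts were counted in mouse embryonic stem cells that were either eIF2α+/+ (WT) or eIF2αA/A (KI), with 3 libraries in each of 4 groups. All cells were kept without serum and with leukaemia inhibitory factor (LIF, 1000 U/mL). For 6 days the medium held either LIF alone or LIF/2i, in which 2i stands for PD0325901, an inhibitor of MEK, and CHIR99021, an inhibitor of GSK3. KI cells carry on both alleles an alanine codon in place of the serine codon that the kinases act on. The study asked how eIF2α phosphorylation controls naive pluripotency. The labels name no clone and do not say whether replicates are separate cultures. A p-value here therefore rests on the spread among these libraries, which may be technical, and genotype cannot be told apart from any other difference between the WT and KI cells.

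eIF2 delivers the initiator tRNA to the ribosome, and its exchange factor eIF2B reloads it with GTP after each round. A kinase that phosphorylates the α subunit turns eIF2 into an inhibitor of eIF2B, so that general protein synthesis falls while a few mRNAs, Atf4 among them, are translated more. Each kinase answers its own signal: shortage of haem and mitochondrial stress for HRI, double-stranded RNA for PKR, unfolded protein in the endoplasmic reticulum for PERK, and uncharged tRNA or stalled ribosomes for GCN2. PP1 is brought to eIF2α by CReP, which is present at all times, or by GADD34, which the stress response itself turns on.

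The mutation lies in Eif2s1, which encodes eIF2α, and its site is shown because every enzyme encoded by the 7 genes acts on it. It is the serine at position 51 counted after the start methionine, codon 52 of the coding sequence. In the GENCODE M21 transcript the codon and 10 codons on each side lie in 1 exon, at chr12:78866650-78866712 on the plus strand of GRCm38. The unmutated reference sequence follows, with the serine codon in capitals.
Eif2s1, codon 52 in its context: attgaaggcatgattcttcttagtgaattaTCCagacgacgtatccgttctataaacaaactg

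The deposited counts do not distinguish the alleles, so this site cannot be used to check the genotype labels, and the level of Eif2s1 checks nothing either. Eif2s1 had 28.2, 23.3 and 26.1 CPM (counts relative to the TMM-scaled size of their library) in WT cells in LIF/2i and 30.9, 44.2 and 57.1 CPM in KI cells in LIF/2i. In LIF it had 32.8, 28.3 and 32.7 CPM in WT and 37.7, 37.7 and 36.1 CPM in KI libraries. Each KI library was above each WT library of the same medium. The log2 fold change of KI against WT was 0.78 ± 0.21 (SE) in LIF/2i and 0.28 ± 0.24 in LIF, with adjusted p-values of 0.0791 and 0.748 by edgeR's quasi-likelihood test, so neither difference passed the threshold of 0.05. DESeq2 called the difference in LIF/2i.

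The 12 libraries held 2307219 to 9713857 counts, and the 7 genes had between 44 (Eif2ak2) and 4827 (Ppp1ca) counts in a library. Counts of WT replicates 1 and 3 in LIF agreed within sampling noise (chi-square per degree of freedom 0.858 over 12373 genes), so the pair was counted as 1 sample. WT cells in LIF therefore have n = 2 in every mean and test, and the other groups n = 3. The summed level of 10 pluripotent cell markers was 3970 to 4150 CPM in WT and 4020 to 4960 CPM in KI libraries in LIF/2i. In LIF it was 3470 to 3720 CPM in WT and 4490 to 5110 CPM in KI libraries. Members of this sum moved in both directions. From LIF/2i to LIF, mean Utf1 went from 179 to 599 CPM in WT and from 429 to 1120 CPM in KI cells. Nanog went from 494 to 310 and from 628 to 254 CPM. By edgeR 1 of the 10 was called higher and 3 lower in LIF in each genotype, beside 13% (WT) and 9.05% (KI) of all genes. Log2 fold changes were above 0 for 1 of 10 in WT and 4 of 10 in KI cells. The 8 fibroblast markers summed to 4.13 to 9.81 CPM in WT and 8.54 to 19.5 CPM in KI libraries in LIF/2i, against 28.6 to 391 CPM in WT and 87.7 to 127 CPM in KI libraries in LIF. Primitive endoderm markers (9 genes) summed to 94.4 to 193 CPM in WT and 54.6 to 67.7 CPM in KI libraries in LIF/2i, and to 299 to 393 CPM and 102 to 106 CPM in LIF. Most of that sum came from Col4a1 and Lama1. In LIF their means were 131 and 170 CPM in WT and 40.2 and 49.6 CPM in KI cells. Pdgfra is counted in this sum and in that of the fibroblast markers. Trophectoderm markers (6 genes) summed to 119 to 147 CPM in WT and 76.5 to 215 CPM in KI libraries in LIF/2i, and to 312 to 390 CPM and 203 to 229 CPM in LIF. In the fibroblast and the trophectoderm list 1 gene was at or under 3 counts in all libraries. Between media, all 4 summed levels were separate in WT cells, and those of fibroblast and primitive endoderm markers also in KI cells. In WT cells 5 of 5 fibroblast, 7 of 7 primitive endoderm and 4 of 4 trophectoderm markers tested had log2 fold changes above 0. In KI cells these were 4 of 5, 5 of 7 and 3 of 4. By edgeR 3, 1 and 2 were called higher in WT and 2, 0 and 1 in KI cells, beside 13% and 9.05% of all genes. Between genotypes, primitive endoderm markers were separate in both media, and trophectoderm and pluripotent cell markers in LIF. The part of these levels in the values below was not tested.

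No kinase or phosphatase gene passed the adjusted threshold by edgeR in any comparison, the interaction of genotype and medium included. For orientation, 2.21% of all genes tested were called between KI and WT in LIF/2i and 0.144% in LIF. Between media, 13% were called in WT cells and 9.05% in KI cells. Averaged over the other factor, 4.48% were called between genotypes and 24% between media. These shares rest on single libraries. The 293 genes called in LIF/2i became 64 without WT LIF/2i replicate 1 and 996 without KI LIF/2i replicate 1, and the count moved by over 1.5 times without any 1 library except WT LIF replicates 1 and 3 and KI LIF replicate 1. The 19 called in LIF became 1 without KI LIF replicate 2 and 53 without KI LIF/2i replicate 1, and moved as far without any 1 of WT LIF/2i replicate 1, WT LIF replicate 2, KI LIF/2i replicates 2 and 3 and KI LIF replicate 3. Between media, the 1714 in WT cells became 390 without WT LIF replicate 2, and also fell by over 1.5 times without WT LIF/2i replicate 1 or 2. The 1197 in KI cells became 498 without KI LIF replicate 3, and moved as far without KI LIF replicate 2. The main fit does not pair KI libraries by replicate number. With that pairing, added after seeing the data, 1005 genes were called higher and 1102 lower in LIF in KI cells, of 12965. Over both media the 593 ranged from 113 (without WT LIF replicate 2) to 1334 (without KI LIF/2i replicate 1), and also moved over 1.5 times without any 1 of WT LIF/2i replicates 1 and 2, KI LIF/2i replicate 2 and KI LIF replicates 2 and 3. Over both genotypes the 3179 became 1999 without WT LIF replicate 2. Between single groups the largest differences belonged to Eif2ak3, lower in KI than in WT cells in LIF/2i, and to Eif2ak2, higher there. Both were past an unadjusted p of 0.05 and short of the adjusted threshold.

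**Figure D1:**
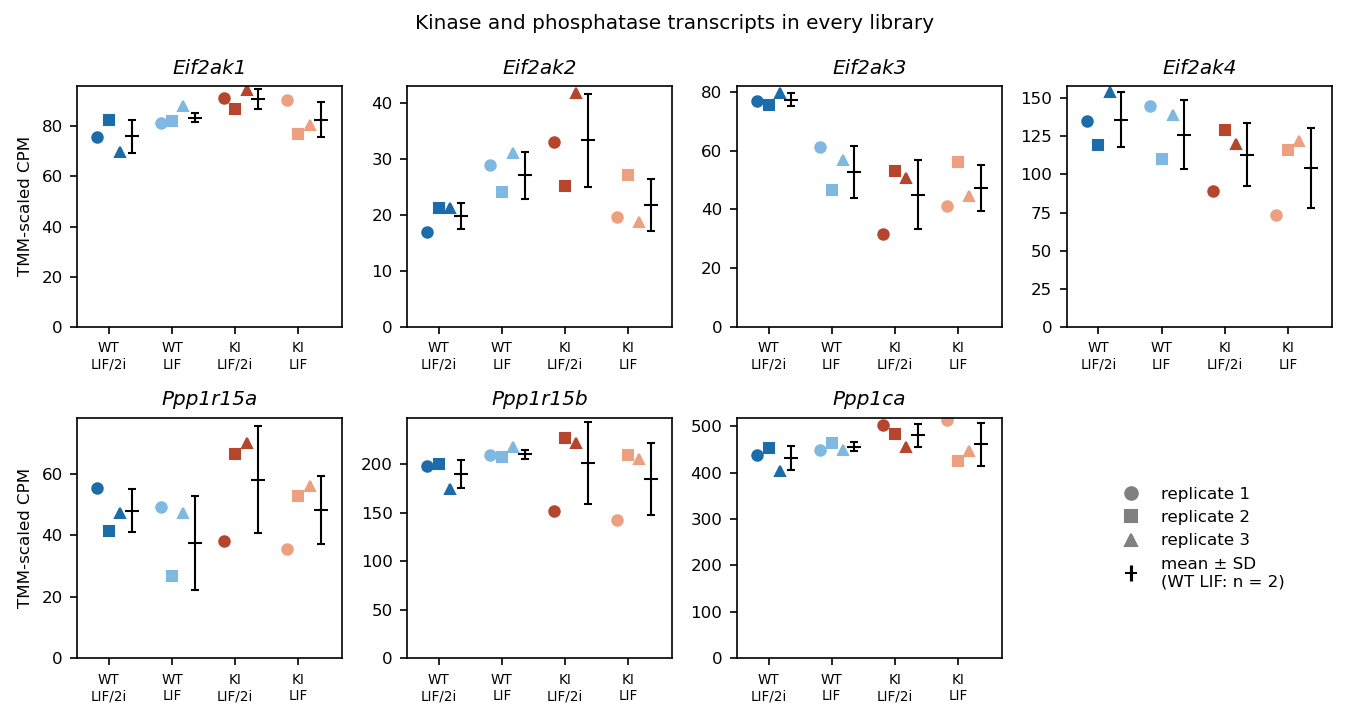
Level of each of the 7 genes in every library, in CPM scaled by TMM (vertical axis, starting at 0), for the 4 groups (horizontal axis); marker shapes stand for replicate numbers, and black bars for the mean ± SD, with WT LIF replicates 1 and 3 averaged first. Eif2ak3 sits at 75.5 to 79.7 CPM in WT cells in LIF/2i and at or below 61.3 CPM in every other library.

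Compared per kilobase of coding sequence, the catalytic subunit was far above the rest. Ppp1ca had 434 ± 26.1 CPM per kilobase (SD, n = 3) in WT cells in LIF/2i, and its mean over the 4 groups, 460 CPM per kilobase, lay at percentile 99.3 of 13060 genes with a length. Next came Ppp1r15b with 90.9 ± 6.84 and Eif2ak1 with 40.9 ± 3.51 CPM per kilobase. Eif2ak4 (27.5 ± 3.61), Ppp1r15a (24.3 ± 3.51) and Eif2ak3 (23.1 ± 0.647) followed. Ppp1r15a lay within its spread of both others, while each library of Eif2ak4 was above each of Eif2ak3. Eif2ak2 was lowest with 12.8 ± 1.54 CPM per kilobase. The first 3 places were the same in all 4 groups. Among the other 4 genes the order changed: Eif2ak3 had the lowest mean in WT cells in LIF (15.8 ± 2.66, n = 2) and in KI cells in LIF/2i (13.5 ± 3.48), and in KI cells in LIF Eif2ak2 and Eif2ak3 both had a mean of 14.1 CPM per kilobase.

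The ratio of the highest to the lowest group mean lay under the median of all genes for 5 of the 7 genes. As many genes lie under a median as over it, so this count is not a result about the 7. By percentile the 5 were at 3.42 (Ppp1ca), 5.05 (Ppp1r15b), 11.7 (Eif2ak1), 25.8 (Eif2ak4) and 48.6 (Ppp1r15a). Genes of a like level were not compared separately. The highest group mean was 1.11 times the lowest for Ppp1ca, 1.13 times for Ppp1r15b, 1.2 times for Eif2ak1, 1.31 times for Eif2ak4 and 1.55 times for Ppp1r15a, against a median of 1.57 over all genes. For Eif2ak2 the ratio was 1.68 and for Eif2ak3 1.71. Spread between libraries of a group was small for Ppp1ca and Eif2ak1, with an SD of 0.0921 and 0.0919 on the log2 scale, and was 0.43 for Ppp1r15a, where the median gene had 0.288.

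Eif2ak3 encodes PERK, the kinase in the membrane of the endoplasmic reticulum. Its levels were 76.9, 75.5 and 79.7 CPM in WT cells in LIF/2i and 31.8, 53 and 50.6 CPM in KI cells in LIF/2i. The groups did not overlap, and KI replicate 1 was the lowest. This gave a log2 fold change of -0.77 ± 0.20, with a 95% interval of -1.21 to -0.32, an unadjusted p of 0.00262 and an adjusted p of 0.0729 by edgeR. Without KI LIF/2i replicate 1 it was -0.59 with an adjusted p of 0.0659. DESeq2 called the gene in this comparison (log2 fold change -0.79, adjusted p = 0.0137), as did edgeR with all 12 libraries counted separately (-0.78, adjusted p = 0.0435) and with the replicate block over those 12 (-0.80, adjusted p = 0.0446). Over the other alternatives the adjusted p ran from 0.0529 to 0.163, with the same direction in each.

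In LIF, Eif2ak3 had 61.3, 46.5 and 56.8 CPM in WT and 41.2, 56.1 and 44.5 CPM in KI libraries, and the groups overlapped. The log2 fold change of KI against WT was -0.16 ± 0.23, with an interval of -0.66 to 0.34. The interaction, the difference between the genotype effects in LIF and in LIF/2i, was 0.61 ± 0.31 with an adjusted p of 0.848, so the effects were not shown to differ. Averaged over both media, the log2 fold change of KI against WT was -0.46 ± 0.15 (unadjusted p = 0.0105, adjusted p = 0.103). Counting the 12 libraries separately, or adding the replicate block to them, moved it past the threshold (-0.49 with adjusted p = 0.0416, and -0.51 with adjusted p = 0.0405).

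Between media, each of the 3 WT libraries in LIF lay below each of the 3 in LIF/2i for Eif2ak3. LIF against LIF/2i had a log2 fold change of -0.54 ± 0.23, with an unadjusted p of 0.036 and an adjusted p of 0.148. In KI cells it was 0.07 ± 0.21, and the groups overlapped. WT cells in LIF/2i were thus the group that stood apart, and the 3 other group means were 52.8 ± 8.89 (WT in LIF, n = 2), 45.1 ± 11.6 (KI in LIF/2i) and 47.3 ± 7.83 CPM (KI in LIF).

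PERK is held inactive by the chaperone Hspa5 (BiP), and Dnajc3 (p58IPK) is known as an inhibitor of PERK and PKR. Hspa5 had 732 ± 60.6 CPM in WT and 864 ± 90.5 CPM in KI cells in LIF/2i, with 751 ± 102 (n = 2) and 769 ± 40.4 CPM in LIF. Dnajc3 had 54 ± 7.86 and 47.1 ± 10.9 CPM in LIF/2i, and 53.6 ± 5 (n = 2) and 39.7 ± 3.75 CPM in LIF. Neither gene passed the adjusted threshold in any comparison. The log2 fold change of Dnajc3 in KI against WT cells in LIF was -0.45 ± 0.21 (adjusted p = 0.483), with each KI library below each WT library.

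Eif2ak2 encodes PKR, the kinase that binds double-stranded RNA and is itself an interferon-stimulated gene. Its levels were 17, 21.2 and 21.2 CPM in WT cells in LIF/2i and 33.1, 25.1 and 41.8 CPM in KI cells in LIF/2i. Each KI library was above each WT library, and the KI libraries were spread more widely. This gave a log2 fold change of 0.76 ± 0.24, with a 95% interval of 0.25 to 1.28, an unadjusted p of 0.00711 and an adjusted p of 0.106 by edgeR. Over the alternatives the adjusted p ran from 0.0546 (DESeq2) to 0.288 (without KI LIF/2i replicate 3), and none called it.

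In LIF the order of the genotypes was not the same for Eif2ak2. WT libraries had 29, 24.1 and 31.1 CPM and KI libraries 19.7, 27.1 and 18.7 CPM, with a log2 fold change of -0.30 ± 0.27 and overlapping groups. The interaction was -1.07 ± 0.35 (unadjusted p = 0.0108, adjusted p = 0.751). By edgeR 0 of the 13229 genes were called for the interaction, while 791 (5.98%) had an unadjusted p under 0.05 and 4 were called without KI LIF/2i replicate 1. DESeq2 called 9 genes higher and 13 lower for it, none of the 7 among them, and limma-voom 0. Between media the WT mean of Eif2ak2 was higher in LIF, by a log2 fold change of 0.46 ± 0.26 (adjusted p = 0.284), and the KI mean lower, by -0.60 ± 0.24 (unadjusted p = 0.027, adjusted p = 0.147). Counts of Eif2ak2 were the lowest of the 7 genes, at 44 to 131 in KI libraries in LIF.

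Among genes around PKR, Adar edits double-stranded RNA. Adar had 92.1 ± 5.21 CPM in WT and 107 ± 4.31 CPM in KI cells in LIF/2i, with no overlap and a log2 fold change of 0.23 ± 0.12 (adjusted p = 0.282). Of 32 interferon-stimulated genes listed, 20 passed the filter. Between KI and WT cells in LIF/2i, where 2.21% of all genes were called, 1 rose and 0 fell. The list's median log2 fold change was -0.08 where all genes had 0.02. The 1 gene was Ddx58, which encodes the RNA sensor RIG-I. It had a mean of 30.1 CPM in WT and 66.5 CPM in KI cells in LIF/2i, a log2 fold change of 1.16 ± 0.17 and an adjusted p of 0.00597. Over both media Ddx58 also rose (0.98 ± 0.13, adjusted p = 0.00274), and Trim25, a ubiquitin ligase of the same sensor, fell by 0.36 ± 0.09 (adjusted p = 0.0377). In LIF 0 of the 20 were called between genotypes by edgeR, while 2 had an unadjusted p under 0.05, where 10.7% of all genes had. DESeq2 called Ddx58 higher and Trim25 lower there, and limma-voom called 0. The rise of Ddx58 in LIF/2i held in all 22 alternatives, and the fall of Trim25 over both media was lost in 9 of 21. Isg15 and Ifit1, classic interferon-stimulated genes, were below the filter, with group means of 0 to 0.235 CPM and 0 to 0.15 CPM.

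Between media, 3 of the 20 were called in WT and 4 in KI cells, beside 13% and 9.05% of all genes. In WT cells 1 rose in LIF, Psmb9 (3.08 ± 0.65), an immunoproteasome subunit, and 2 fell, Xaf1 (-3.09 ± 0.64) and Trim25 (-0.59 ± 0.13). In KI cells 2 rose, Bst2 (1.97 ± 0.41) and Oas3 (2.08 ± 0.47), and 2 fell, Xaf1 (-4.21 ± 0.70) and Trim25 (-0.83 ± 0.12). From LIF/2i to LIF, mean Psmb9 in WT cells climbed from 0.244 to 2.14 CPM. Mean Xaf1 dropped from 9.43 to 1.1 CPM there, and from 7.81 to 0.445 CPM in KI cells. The means of 0.244 and 0.445 CPM lie under the level that 3 counts equal in any library of their group. The sizes of these changes of Psmb9 and Xaf1 therefore rest on few counts. In WT cells the call of Psmb9 was lost without WT LIF/2i replicate 1, those of Trim25 and Xaf1 without WT LIF replicate 2, and those of Psmb9 and Trim25 without both agreeing WT LIF libraries. In KI cells Bst2 was lost without KI LIF replicate 2 or 3 and Oas3 without KI LIF replicate 2, while Xaf1 and Trim25 held in all 23 alternatives. Bst2 encodes the antiviral protein tetherin, and Oas3 a synthetase activated by double-stranded RNA. The list's median log2 fold change was 0.11 in WT and -0.01 in KI cells, beside 0.01 and -0.03 over all genes.

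**Figure D2:**
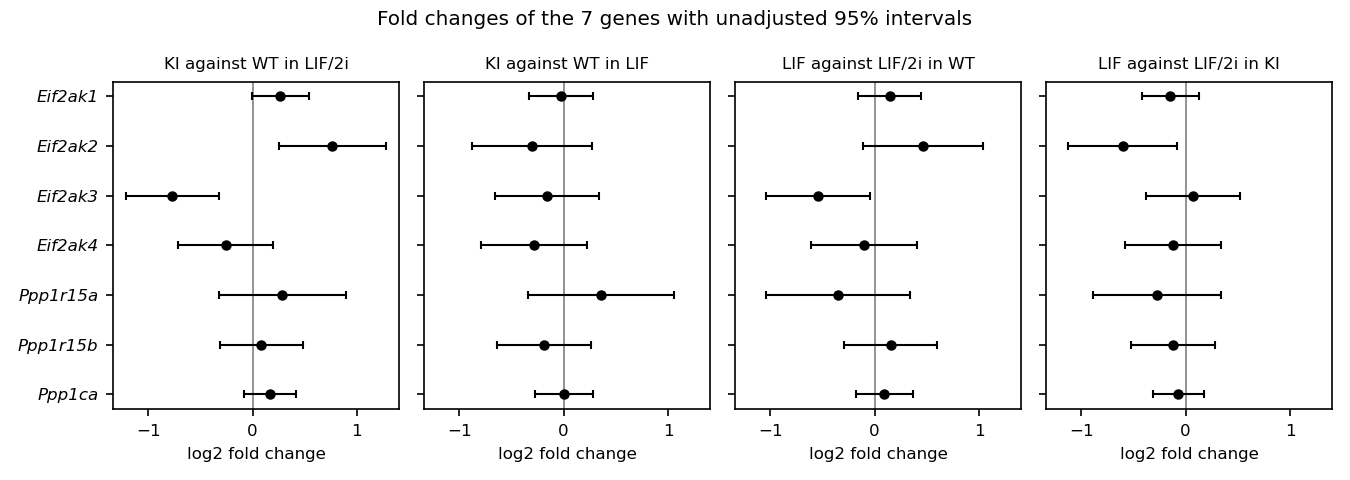
Log2 fold change of each of the 7 genes (dots) with its unadjusted 95% interval (bars) in the 4 comparisons of single groups. Intervals of Eif2ak2 (0.25 to 1.28) and Eif2ak3 (-1.21 to -0.32) in KI against WT cells in LIF/2i lie to either side of 0, and no gene passed the adjusted threshold.

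Eif2ak1 encodes HRI, best known from red cell precursors, and was the most abundant of the kinases per kilobase. In LIF/2i its levels were 75.8, 82.7 and 69.6 CPM in WT and 91.2, 86.8 and 94.7 CPM in KI libraries. The groups did not overlap, but the difference was small, with a log2 fold change of 0.27 ± 0.12 (interval -0.002 to 0.54, adjusted p = 0.247). In LIF the levels were 81.2, 82.3 and 88.3 CPM in WT and 90.5, 77 and 80.6 CPM in KI libraries, with a log2 fold change of -0.03 ± 0.14. Between media the log2 fold change was 0.15 ± 0.14 in WT and -0.15 ± 0.13 in KI cells. The intervals of the last 3 comparisons reached from -0.42 to 0.45 at most. Of the 8 enzymes of haem synthesis, the product that keeps HRI inactive, 0 were called by edgeR between genotypes in either medium or between media in either genotype. Past an unadjusted p of 0.05 were 2 (LIF/2i), 1 (LIF), 0 (WT) and 1 (KI), beside 20.5%, 10.7%, 27.5% and 23.7% of all genes. Limma-voom called 0 and DESeq2 only Alas1, between media in KI cells. Over both genotypes edgeR called 1 higher in LIF, where 24% of all genes were called. It was Alas1, which makes the first intermediate (0.34 ± 0.10, adjusted p = 0.0245), a call lost in 7 of 21 alternatives.

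Eif2ak4 encodes GCN2, the sensor of amino acid shortage. It had 135, 119 and 154 CPM in WT and 89, 129 and 120 CPM in KI libraries in LIF/2i. In LIF it had 145, 110 and 139 CPM in WT and 73.6, 116 and 122 CPM in KI libraries. The groups overlapped in both media, with KI replicate 1 the lowest library in each. Log2 fold changes of KI against WT were -0.26 ± 0.21 in LIF/2i and -0.28 ± 0.23 in LIF, and those of LIF against LIF/2i were -0.10 ± 0.23 in WT and -0.12 ± 0.21 in KI cells.

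Of the 15 direct regulators of the kinases, which include Gcn1 and Impact (GCN2), Prkra and Tarbp2 (PKR), Dele1 and Oma1 (HRI) and Hspa5 and Dnajc3 (PERK), 0 were called by edgeR between genotypes in either medium, or between media in either genotype. Past an unadjusted p of 0.05 were 1 in LIF/2i, 1 in LIF, 2 between media in WT cells and 0 in KI cells. Of all genes 20.5%, 10.7%, 27.5% and 23.7% were past it, and 2.21%, 0.144%, 13% and 9.05% were called. Their median log2 fold change between KI and WT was 0.09 in LIF/2i and 0.03 in LIF, beside 0.02 and 0 over all genes. Over both genotypes, where 24% of all genes were called, 1 of the 15 rose in LIF by edgeR. It was Prkra, which encodes the PKR activator PACT (0.70 ± 0.20, adjusted p = 0.0244). That call was lost in 4 of 21 alternatives, which left out WT LIF/2i replicate 1, WT LIF replicate 2, or KI LIF replicate 2 or 3 (highest adjusted p 0.125). DESeq2 and limma-voom also called Prkra higher between media in WT cells, and no other regulator in these 4 comparisons.

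Share of the kinase transcripts gives the same values on another scale. Of the summed CPM per kilobase of the 4 kinases, Eif2ak3 made up 22.5%, 21.6% and 22.5% in WT cells in LIF/2i, and 9.7% to 16.9% in the other 9 libraries. Eif2ak2 made up 10.8% to 13.1% in WT cells in LIF/2i, 16.2% to 17.9% in WT cells in LIF, 15.5% to 23% in KI cells in LIF/2i and 12.9% to 17.7% in KI cells in LIF. Eif2ak1 had the highest share in every group, with means from 39.2% ± 3.65 in WT cells in LIF/2i to 47.7% ± 6.67 in KI cells in LIF. Eif2ak4 had means from 21.3% ± 3.28 in KI to 26.3% ± 3.27 in WT cells in LIF/2i. Eif2ak3 exceeded Eif2ak2 in each of the 3 WT libraries in LIF/2i, and Eif2ak2 exceeded Eif2ak3 in each WT library in LIF and each KI library in LIF/2i. In KI cells in LIF Eif2ak2 was the higher in 2 of 3 libraries.

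**Figure D3:**
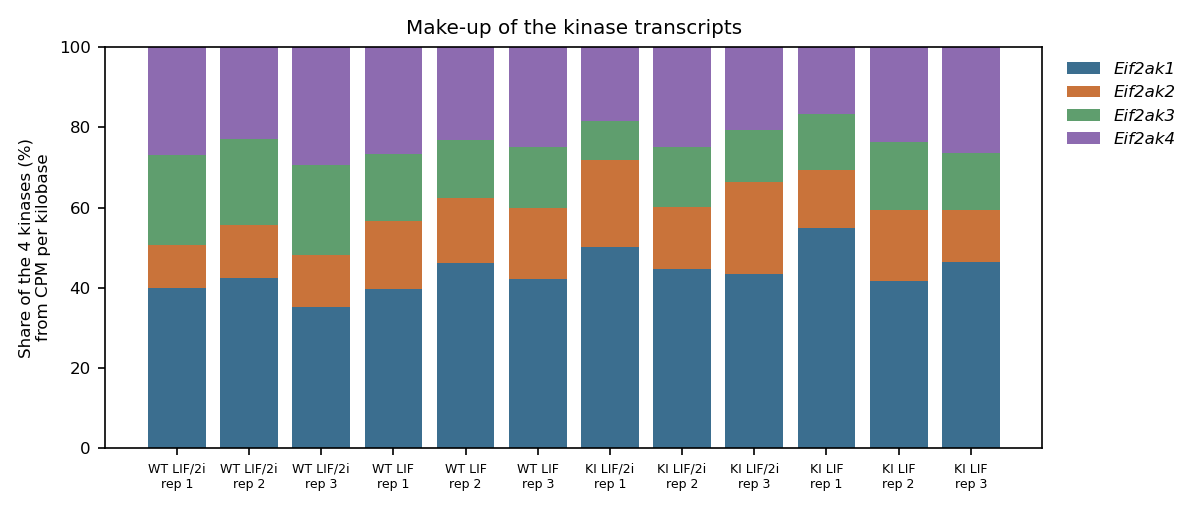
Share of each kinase in the summed CPM per kilobase of the 4 kinases (vertical axis, percent) in each of the 12 libraries (horizontal axis). The Eif2ak3 band is widest in the 3 WT libraries in LIF/2i, at 21.6% to 22.5%, and covers 9.7% to 16.9% elsewhere.

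The regulatory subunits of the phosphatase differed in level and in spread. Ppp1r15b, which encodes CReP, had 198, 200 and 174 CPM in WT and 152, 227 and 222 CPM in KI libraries in LIF/2i, and 209, 207 and 218 CPM in WT and 143, 209 and 205 CPM in KI libraries in LIF. All WT libraries in LIF lay above those in LIF/2i, but by a log2 fold change of only 0.15 ± 0.20 (adjusted p = 0.691). KI against WT gave 0.09 ± 0.18 in LIF/2i and -0.19 ± 0.21 in LIF, with overlapping groups.

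Ppp1r15a, which encodes the inducible GADD34, had 55.3, 41.5 and 47.2 CPM in WT and 38, 66.4 and 69.9 CPM in KI libraries in LIF/2i. In LIF it had 49.3, 26.6 and 47.2 CPM in WT and 35.6, 52.8 and 56 CPM in KI libraries. Single libraries lay far from the others of their group: KI replicate 1 in both media, and WT LIF replicate 2. The log2 fold change of KI against WT was 0.29 ± 0.28 in LIF/2i and 0.36 ± 0.32 in LIF (interval -0.34 to 1.05), and without WT LIF replicate 2 the latter was near 0, at -0.004.

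Per kilobase, Ppp1r15a stood at 0.22 to 0.297 times Ppp1r15b in WT cells in LIF/2i and at 0.137 to 0.25 times in WT cells in LIF. In KI cells the ratio was 0.265 to 0.333 in LIF/2i and 0.265 to 0.29 in LIF. KI replicate 1, low for both genes, had a ratio of 0.265 in each medium.

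Ppp1ca had 437, 453 and 403 CPM in WT and 503, 484 and 454 CPM in KI libraries in LIF/2i, a narrow gap with no overlap (log2 fold change 0.17 ± 0.11, adjusted p = 0.421). In LIF it had 449, 463 and 449 CPM in WT and 513, 425 and 447 CPM in KI libraries (0.01 ± 0.13). Its interval in LIF, -0.27 to 0.28, bounds the difference on either side. Ppp1cb, another catalytic subunit of PP1, had 286 ± 9.27 and 286 ± 40.2 CPM in WT and KI cells in LIF/2i, and 280 ± 40.3 (n = 2) and 254 ± 12.6 CPM in LIF. Ppp1ca made up 59.8% ± 2.17 to 64.1% ± 1.74 of the catalytic subunits per kilobase in the 4 groups. The table lists Ppp1cc with 0 to 14 counts in a library, under the filter; how reads with several matches were counted is not given in the sources used here, and its part in that low value was not tested.

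Of 10 other catalytic subunits and inhibitors of PP1, 8 were tested. Between genotypes 0 were called by edgeR, DESeq2 or limma-voom in either medium. Past an unadjusted p of 0.05 were 1 in LIF/2i and 0 in LIF, beside 20.5% and 10.7% of all genes. The list's median log2 fold change was 0.25 in LIF/2i and 0.02 in LIF. In WT cells, where 13% of all genes were called, 1 rose in LIF by edgeR. It was Ppp1r11, which encodes an inhibitor of PP1 (0.70 ± 0.21, adjusted p = 0.0451). That call was lost in 10 of 22 alternatives, the removal of any 1 of 5 WT libraries among them. In KI cells 0 were called by any of the 3 tools, and 1 had an unadjusted p under 0.05, where 23.7% of all genes had.

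Counting libraries that do not overlap, 4 of the 7 genes were separate between KI and WT in LIF/2i (Eif2ak1, Eif2ak2 and Ppp1ca higher, Eif2ak3 lower), where 22.7% of all genes tested were. Between media 3 of 7 were separate in WT cells (Eif2ak2 and Ppp1r15b higher in LIF, Eif2ak3 lower), near the 48.8% of all genes. None was separate between KI and WT in LIF, where 31.7% of all genes were, or between media in KI cells, where 27.2% were. Past an unadjusted p of 0.05 were 2 of 7 in LIF/2i (20.5% of all genes), 0 in LIF (10.7%), 1 between media in WT cells (27.5%) and 1 in KI cells (23.7%). The median absolute log2 fold change of the kinases between KI and WT was 0.52 in LIF/2i, beside 0.30 over all genes, and 0.22 in LIF, beside 0.25. For the phosphatase subunits it was 0.17 and 0.19. The comparisons of 1 group with others share that group's libraries, so these counts are not independent of each other.

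Deviations of several of the genes ran together in 1 replicate number. KI replicate 1 was the lowest KI library in LIF/2i and in LIF for Eif2ak3, Eif2ak4, Ppp1r15a and Ppp1r15b, and the highest in both for Ppp1ca. Its log2 deviation from the group mean was -0.32 and -0.46 for Eif2ak4, -0.56 and -0.41 for Ppp1r15a, -0.38 and -0.36 for Ppp1r15b, and -0.47 and -0.19 for Eif2ak3, in LIF/2i and in LIF. For Ppp1ca it was 0.07 and 0.16. Eif2ak2 did not follow: its lowest KI library was replicate 2 in LIF/2i and replicate 3 in LIF. Over all genes with enough counts, chi-square per degree of freedom in LIF/2i was 32.2 and 40.2 for KI replicate 1 against replicates 2 and 3. Between replicates 2 and 3 it was 26.1. In LIF these values were 13, 9.46 and 2.61. How many of all genes follow KI replicate 1 in this way was not counted. The pattern is therefore not shown to be particular to these genes.

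Over the 11 samples, with group means removed, the 4 genes that were low in KI replicate 1 had Pearson correlations of 0.767 to 0.87 with each other, and of -0.883 to -0.592 with Ppp1ca. Eif2ak2 had 0.125 to 0.292 with the same 4. These correlations are descriptions: the points share libraries, and KI replicate 1 of both media carries part of each. The 4 genes were also picked by their level in that replicate.

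**Figure D4:**
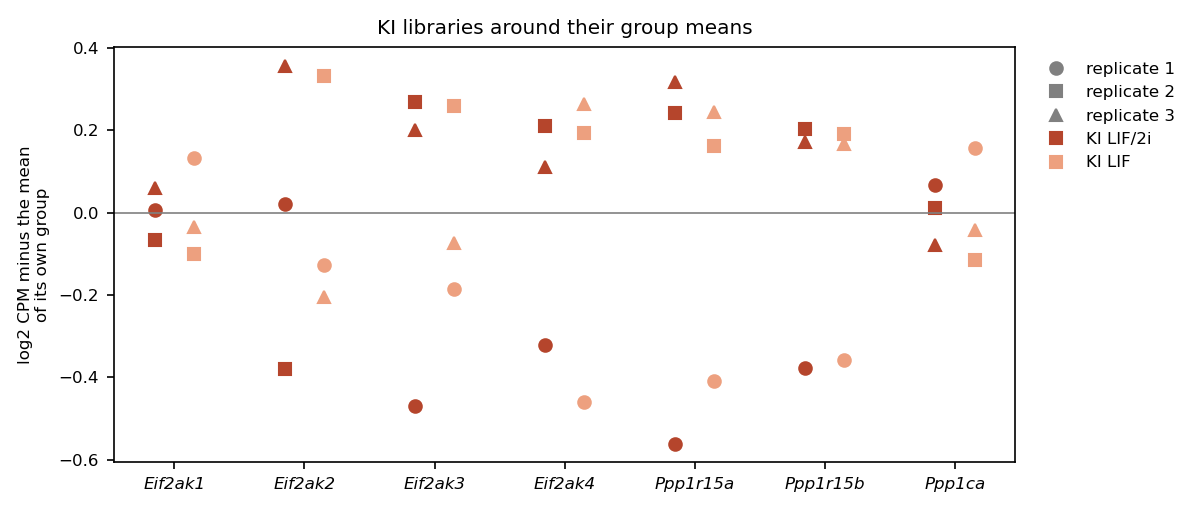
Log2 CPM of each KI library minus the mean of its own group (vertical axis) for the 7 genes (horizontal axis), with color for medium and shape for replicate number. Circles, replicate 1, lie lowest in both media for Eif2ak3, Eif2ak4, Ppp1r15a and Ppp1r15b (-0.56 to -0.19) and above 0 for Ppp1ca.

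The genes whose log2 CPM ran most nearly in parallel over the 11 samples were, for each gene, Sar1b (r = 0.958) and Coq3 (0.953) for Eif2ak1, Tmem251 (0.919) and Mrpl21 (0.902) for Eif2ak2, and Tmem170b (0.947) and Auh (0.945) for Eif2ak3. Eif2ak4 was nearest to Nt5c3 (0.962) and Nfe2l3 (0.93). For the phosphatase they were Cct8 (0.963) and Tyw3 (0.929) for Ppp1r15a, Ptcd3 (0.941) and Kcmf1 (0.937) for Ppp1r15b, and Slc25a26 (0.94) and Mcm5 (0.939) for Ppp1ca. These are the highest correlations among all genes tested, given as a description.

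Downstream of eIF2α, several genes rose in WT cells in LIF. Of 10 transcription factors and effectors, 5 rose in WT cells in LIF and 0 fell, where 13% of all genes were called, with a median log2 fold change of 1.31 where all genes had 0.01. Those were Atf4 itself (0.68 ± 0.20, adjusted p = 0.0427), Atf5, a related factor (1.95 ± 0.30), Trib3, a pseudokinase that feeds back on ATF4 (2.24 ± 0.31), Chac1, which degrades glutathione (2.33 ± 0.52), and Cebpb, a partner of ATF4 (2.28 ± 0.44). Without WT LIF replicate 2 the count was 3, as Atf4 and Cebpb were lost. In KI cells 1 of 10 rose, Cebpb (1.99 ± 0.41, adjusted p = 0.0114), and the median was 0.36. Cebpb was lost there without KI LIF replicate 2 or 3. The calls of Atf5 and Trib3 in WT cells held in all 22 alternatives, that of Atf4 was lost in 7 and that of Chac1 in 1, which left out both agreeing WT LIF libraries.

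Trib3 showed the pattern by library: 8.28, 11.5 and 8.28 CPM in WT cells in LIF/2i, 45.5, 40.9 and 49.8 CPM in WT cells in LIF, 7.08, 15.7 and 12.8 CPM in KI cells in LIF/2i, and 18.3, 21.9 and 21.6 CPM in KI cells in LIF. WT libraries in LIF were far above the rest. The interaction of Trib3 was -1.44 ± 0.42 (unadjusted p = 0.00462, adjusted p = 0.707), and that of Atf4 -0.68 ± 0.27 (adjusted p = 0.815), so a difference between the genotypes in their response to medium was not shown. By edgeR 4 of the 10 effectors had an unadjusted p under 0.05 for the interaction, where 5.98% of all genes had. The median of the 10 was -0.52, beside -0.03 over all genes. None of the 13229 genes tested was called for it. Ddit3, which encodes CHOP, had group means of 4.24 to 8.04 CPM and was called in no comparison.

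Between KI and WT in LIF, 0 of the 10 effectors were called by edgeR, where 0.144% of all genes were. An unadjusted p under 0.05 was found for 4 of them and for 10.7% of all genes. The median log2 fold change of the effectors was -0.80, 1 of 10 was above 0, and all genes had a median of 0. The 4 were Atf5 (-1.48 ± 0.30, adjusted p = 0.102), Chac1 (-2.60 ± 0.56, adjusted p = 0.113), Trib3 (-1.11 ± 0.30, adjusted p = 0.205) and Nupr1 (-2.48 ± 0.77, adjusted p = 0.257). Mean Chac1 in LIF was 9.88 CPM in WT and 1.54 CPM in KI cells, and mean Nupr1 12.6 and 2.14 CPM. The sizes of these 2 changes rest on few counts in KI libraries. DESeq2 called 2 lower, Atf5 and Chac1, and limma-voom 0. Over both media Chac1 fell by 1.60 ± 0.38 (adjusted p = 0.0382) on the log2 scale, a call lost in 10 of 21 alternatives. In LIF/2i 0 of 10 were called by edgeR, DESeq2 or limma-voom, the median being -0.20. By edgeR 2 had an unadjusted p under 0.05, where 20.5% of all genes had: Ddit4 (-1.73 ± 0.57) and Atf4 (0.43 ± 0.18).

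In the comparison of media in WT cells, then, 5 of 10 effectors and 0 of the 7 kinase and phosphatase genes were called; the difference between the lists was not tested. Ppp1r15a, itself known as a target of ATF4, had a log2 fold change of -0.35 ± 0.32 (interval -1.04 to 0.34) in that comparison, and 0.0124 without WT LIF replicate 2, so its direction rests on that library. Trib3 had an interval of 1.57 to 2.91.

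Of 10 genes of eIF2, eIF2B and related factors, 2 fell in LIF in WT cells and 2 in KI cells, beside 13% and 9.05% of all genes called. Both times they were Eif2b5 and Eif2b4, subunits of the exchange factor eIF2B, and no subunit of eIF2 itself was called between media by edgeR. Eif2b5, the catalytic ε subunit, fell by 1.18 ± 0.16 in WT and by 1.23 ± 0.14 in KI cells on the log2 scale (adjusted p = 0.00132 and 0.000643), from group means of 672 and 662 CPM in LIF/2i to 294 and 286 CPM in LIF. Eif2b4, the δ subunit, fell by 0.57 ± 0.15 and 0.53 ± 0.14 (adjusted p = 0.0293 and 0.0317). The calls of Eif2b5 held in all alternatives, and that of Eif2b4 was lost in 4 of 22 in WT and 8 of 23 in KI cells. Between KI and WT 0 of the 10 were called by edgeR in either medium, with medians of 0.16 in LIF/2i and 0.15 in LIF. Past an unadjusted p of 0.05 were 2 in LIF/2i and 0 in LIF, beside 20.5% and 10.7% of all genes. DESeq2 called Eif2s1 and Eif5 higher in LIF/2i, and limma-voom 0.

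**Figure D5:**
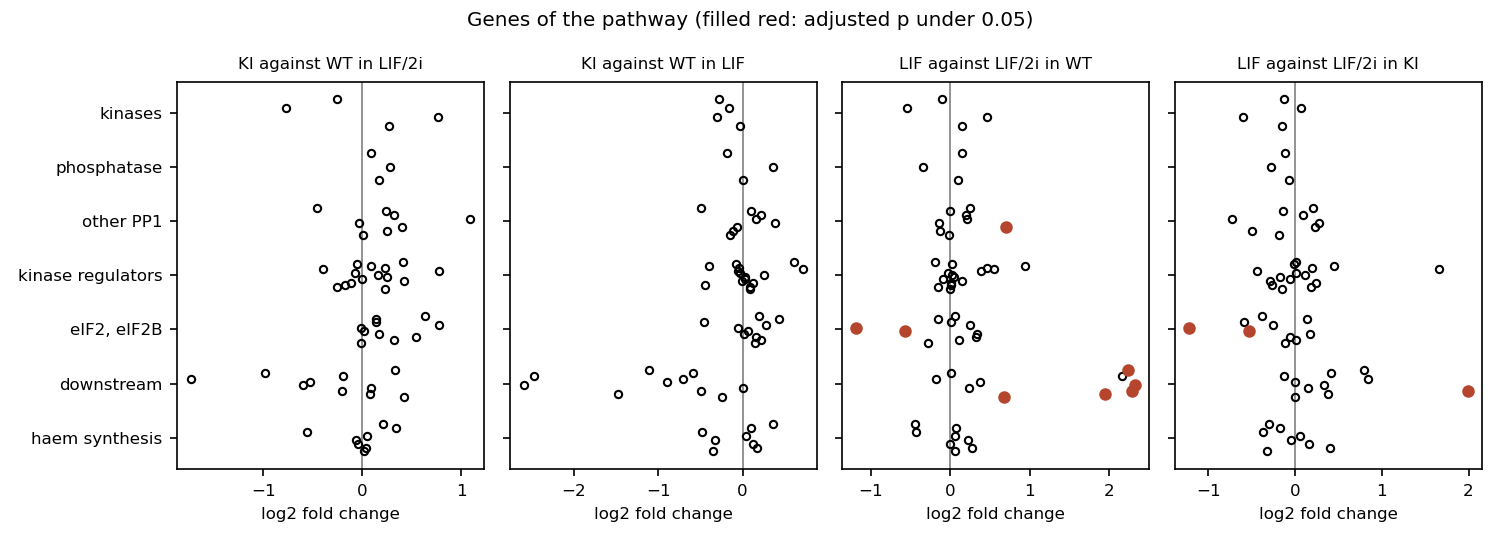
Log2 fold change (horizontal axis) of every tested gene of the kinases, the phosphatase subunits and 5 further lists (rows: other PP1 subunits and inhibitors, kinase regulators, eIF2 and eIF2B, downstream effectors, haem synthesis) in the 4 comparisons of single groups; filled red dots passed the adjusted threshold. In the lists drawn, red dots appear only between media; interferon-stimulated genes, where Ddx58 was called between genotypes in LIF/2i, are not drawn. The dots are 5 effectors, Ppp1r11, Eif2b5 and Eif2b4 in WT cells, and Cebpb, Eif2b5 and Eif2b4 in KI cells.

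Sequence upstream of the genes was read from RefSeq promoter windows on GRCm38.p6, from 250 bases before to 50 after a transcription start. The table held 6 windows for 5 of the 7 genes, and none was read for Ppp1r15b or Ppp1ca. Both strands were searched for an interferon response core (GAAANNGAAA), a cAMP response element (TGACGTCA), a C/EBP-ATF site (TGATGNAA) and the endoplasmic reticulum stress element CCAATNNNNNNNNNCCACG. The interferon core was found in the windows of Eif2ak2 and Ppp1r15a, where 3.44% of all 32851 windows hold it, and the cAMP element in that of Ppp1r15a, where 1.79% do. No window of the 5 genes held the C/EBP-ATF site (3.97% of all windows) or the stress element (0.119%). The matches are shown because these 2 genes are the members known to be induced by interferon and by stress, with the motif in capitals and 10 bases on each side, on the minus strand.
Eif2ak2, interferon core, chr17:78882535-78882564: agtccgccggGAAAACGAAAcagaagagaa
Ppp1r15a, interferon core, chr7:45526469-45526498: aaaataaaagGAAAGGGAAAtggcacggta
Ppp1r15a, cAMP element, chr7:45526263-45526290: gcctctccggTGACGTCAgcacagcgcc

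In Eif2ak2 the core began 19 bases into the transcript, and in Ppp1r15a the core and the cAMP element began 220 and 12 bases before the start. These distances are from the RefSeq start. The counted transcript of Ppp1r15a starts further downstream, at chr7:45526146, outside the window of 45526219 to 45526518. A match of letters is not a site in use, and the levels of Eif2ak2 and Ppp1r15a given above were not called in any comparison by edgeR.

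The 7 genes lie on chromosomes 1 (Ppp1r15b), 2 (Eif2ak4), 5 (Eif2ak1), 6 (Eif2ak3), 7 (Ppp1r15a), 17 (Eif2ak2) and 19 (Ppp1ca), none on chromosome 12 with Eif2s1. Coding exons of 4 of them overlap a gene on the opposite strand in GENCODE M21: Ankrd61 for Eif2ak1, Gm43292 for Eif2ak3, Gm26616 for Ppp1r15b and AC109138.6 for Ppp1ca. How strand was treated in the counting is not given in the sources used here, so reads of these genes and of their opposite partners cannot be told apart. In bulk RNA, a lower level from fewer cells of a type and one from less RNA per cell cannot be told apart either.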

How the data were processed

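The authors deposited 1 table of raw read counts; per the file headers each row counts reads in the coding region of a single transcript, and untranslated regions are left out. Tools listed in the submitters' processing notes, with no role, are UMI-tools 1.0.1, Bowtie 1.3.0 and cutadapt 3.4; build, annotation, counter and strand setting were not given in the sources used here. Per the labels' protocols, RNA came from the supernatant of a spun lysate of cells washed with cycloheximide, was depleted of ribosomal RNA and was fragmented. Transcript identifiers were matched to GENCODE M21 (GRCm38; 22155 of 22416 found, 21766 with the same symbol), the source of lengths and coordinates.

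Groups were taken from the labels. The 7 genes and all lists were chosen with earlier results of these data known. Genes with enough counts (edgeR's filterByExpr, minimum count 10) were fitted by robust glmQLFit of edgeR 4.0.16 (R 4.3.3) after TMM scaling (factors 0.946 to 1.04), each group having its own mean; 11 samples entered, since the agreeing WT LIF replicates 1 and 3 were averaged, as the design allowed. The coefficient of variation was 0.234. Tests were two-sided quasi-likelihood F tests with Benjamini-Hochberg adjustment over 13229 genes at 0.05. Errors of log2 fold changes are SEs, those of levels SDs. Levels are TMM-scaled CPM. In a library 3 counts equal up to 1.3 CPM. The procedure was tested on simulated data. Beside the genes named next, Tfap2c, Cdx2, Elf5, Col4a1, Lama1 and Pdgfra were picked from the marker lists with their values known. The genes named were the 7, Eif2s1, fixed neighbours (Atf4, Ddit3, Trib3, Ppp1cb, Ppp1cc, Dnajc3, Hspa5, Adar and 1 gene that is not reported here), the 2 genes most correlated with each of the 7, and per list and comparison up to 3 called genes in each direction; Isg15, Ifit1, Nupr1, Ddit4, Eif5, the regulators listed by function, Chac1 in WT cells and the uncalled values of Atf5 and Chac1 were picked with their values known.

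Replicate numbers recur in every group. Deviations of same-numbered libraries from their group means correlated at 0.499, 0.373 and 0.22 between media in KI cells, so the numbers pair the KI libraries, a reading of the data that no label states. The main tests leave this pairing out. In WT cells the correlations were 0.0392, 0.125 and 0.0495. Between genotypes they were 0.0682, -0.0933 and -0.0459 in LIF/2i and 0.0387, 0.0352 and -0.0234 in LIF. Alternatives were DESeq2 1.42.0, limma-voom (limma 3.58.1), other scalings and filters, only the groups compared, the replicate block, 12 separate libraries and leaving out each library; a replicate block within KI cells alone was added after seeing the data.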

Additional observations from a re-analysis of the deposited data

How the results depend on the processing

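Over 22 alternatives (21 for averages and the interaction, 23 between media in KI cells), 997 values of the 7 genes kept direction and side of the threshold, 5 moved past it and 62 changed sign. The count of the 7 genes called was 0 in every comparison and became 1, Eif2ak3, between KI and WT in LIF/2i by DESeq2, with 12 separate libraries and with the replicate block over them, and over both media with the last 2; leaving out single libraries gave 0 to 0. Among the 7 genes the replicate block within KI cells changed no call (Eif2ak2 between media -0.57, adjusted p = 0.114 by edgeR), and that over 12 libraries changed no other.

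Sign changes were all in uncalled differences, given as log2 fold changes. Those of Ppp1r15a in LIF between genotypes and in WT cells between media came without WT LIF replicate 2. Ranges on leaving out single libraries were -0.0854 to 0.00594 for Eif2ak1, -0.0667 to 0.0446 for Ppp1ca and -0.00449 to 0.54 for Ppp1r15a between genotypes in LIF, and -0.0269 to 0.231 for Ppp1r15b in LIF/2i and -0.119 to 0.0307 over both media. Between media they were -0.133 to 0.212 (Eif2ak3), -0.271 to 0.0789 (Eif2ak4) and -0.288 to 0.0452 (Ppp1r15b) in KI cells, -0.204 to 0.0663 (Eif2ak4) and -0.459 to 0.0124 (Ppp1r15a) in WT cells, and -0.0315 to 0.0296 (Eif2ak1), -0.176 to 0.0321 (Eif2ak2), -0.0234 to 0.033 (Ppp1ca) and -0.0712 to 0.0999 (Ppp1r15b) over both genotypes. For the interaction they were -0.194 to 0.178 (Eif2ak4) and -0.293 to 0.254 (Ppp1r15a).

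Other settings reversed Eif2ak1 between media over both genotypes (0.00629 by DESeq2, 0.00968 with its size factors, 0.0725 with library totals, 0.011 with a minimum count of 30, 0.00237 with 12 libraries, 0.00184 with the block). Library totals also reversed Eif2ak2 (0.0064) there and Ppp1ca between media in KI cells (0.00373). No filter reversed Ppp1ca (-0.00501) and Ppp1r15b (-0.000278) between media over both genotypes. Without both agreeing WT LIF libraries Eif2ak3 between genotypes in LIF was 0.0144. Ppp1ca in LIF was -0.0163 with no filter, -0.00656 with a minimum count of 30, -0.00658 with only the groups compared and -0.0253 without the agreeing pair. The interaction of Eif2ak4 was 0.00223 by DESeq2, 0.00207 with its size factors and 0.161 without the pair, and that of Ppp1r15a -0.0396 with 12 libraries and -0.0145 with the block. The cause was not tested.

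Of all genes between KI and WT in LIF/2i, edgeR called 293, DESeq2 405 higher and 512 lower, and edgeR on only those groups 29 higher and 36 lower; in LIF edgeR called 19, DESeq2 86 higher and 120 lower. Library totals moved the split between media in WT cells from 834 higher and 880 lower to 953 and 717. Without length scaling Eif2ak4, with the longest coding sequence, held 39.7% to 43.9% of the kinase counts and Eif2ak1 24.7% to 32.8%, as group means. Single libraries went beyond these ranges. KI replicate 1 had 876 counts of Eif2ak1 and 854 of Eif2ak4 in LIF/2i, and 257 and 209 in LIF. Of the 7 genes Eif2ak2 had the fewest counts, 44 to 131 in KI libraries in LIF.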
